A study of Rattus norvegicus with 6 samples.

Results

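Ion channel and neurotransmitter receptor genes were followed in 3 rat esophageal tumor cell lines, chosen by a symbol pattern for channel subunits, ligand-gated receptors and G-protein-coupled receptors in the array's gene annotation. The pattern matched 29 of the 3158 named genes, measured by 36 clones and 72 spots. Of these, 18 were placed by symbol in channel families and 6 in receptor families, and 5 matched by spelling only. Of 25 families listed, 12 had a measured gene and 13 had none, among them the GABA-A, glycine, glutamate, dopamine, serotonin and muscarinic receptors.

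JA, JB and Amy are rat cell lines labelled as coming from reflux-induced esophageal tumors. The control was 1 pool that mixed the normal esophageal lines Normal1 and Normal2 in equal parts. Strain, animal age, genotype and culture treatment are not given in the sources used here. Each line was hybridized with the pool on 2 cDNA arrays, in Cy5 on one and in Cy3 on the other, giving 6 arrays of 16128 spots. The 2 arrays hold the same 2 extracts, so a line is 1 replicate and p-values measure only the spread between these lines, with the pool's own spread left out.

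All values are log2 ratios of tumor line over normal pool, so a negative value means less signal in the line. That direction is likely, since each title puts the line before the pool, and is not settled. Values of a line are given with the line in Cy5 first and in Cy3 second. In bulk RNA of a culture, fewer cells that express a gene and less RNA per cell cannot be told apart.

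Ion channels are pore-forming membrane proteins whose opening is controlled by voltage, ligands, temperature, acid or second messengers, and many need auxiliary subunits. In the esophagus they are best known in muscle and in sensory and autonomic nerves, while epithelial cells use potassium, TRP and intracellular calcium channels for volume control, acid sensing and calcium signalling. Adrenergic and other G-protein-coupled receptors act through G proteins and, in many cases, through calcium release by inositol trisphosphate receptors.

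Across the group, 14 of the 29 genes passed limma's test at an adjusted p under 0.05 (48.3%), against 53.5% of all 7180 features tested. Lower in the lines were 11 (37.9%, against 32.8% of all features), and higher were 3 (10.3%, against 20.7%). The share called was near that of all features. The median of the 29 means was -0.27, and that of all features was -0.12. All 14 had 1 sign on all 6 arrays, so 48.3% of the 29 genes were called with 1 sign, against 48.9% of all features. Without JA, 6 of the 29 genes passed (20.7%), against 28.9% of all features. Without Amy, 6 passed (20.7%), against 37.6%, and without JB 13 passed (44.8%), against 51.5%.

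**Figure D1:**
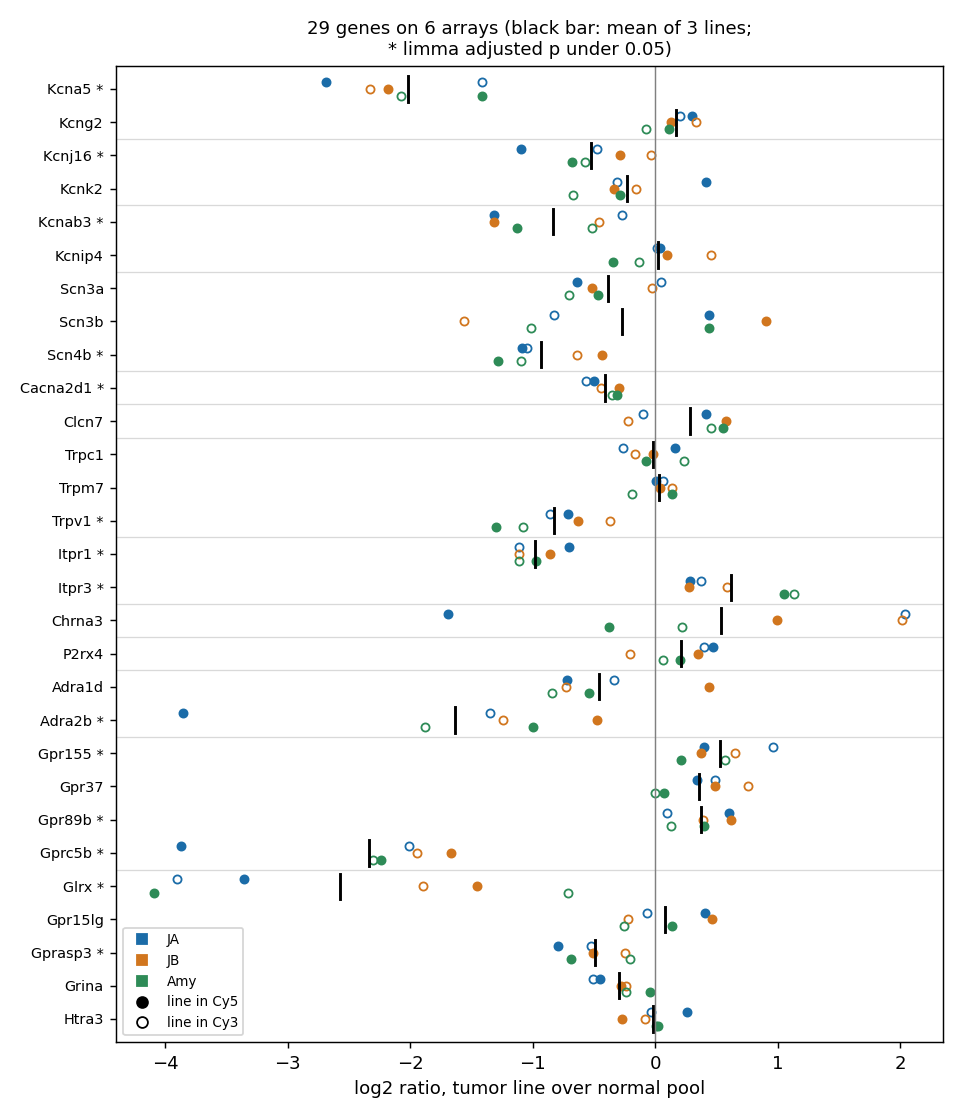
Log2 ratio of tumor line over normal pool (x axis) for 29 genes ordered by family (y axis) on 6 arrays; filled points have the line in Cy5, open points in Cy3, black bars are means of 3 lines and stars mark genes with a limma adjusted p under 0.05. Kcna5, Gprc5b, Glrx and Adra2b lie farthest below 0, while Itpr3 lies above 0 with both Amy points at the right.

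Promoter windows of the 4 genes below are shown because Kcna5 held its call under every alternative, Gprc5b and Itpr1 were each measured by a pair of clones that disagree, and Itpr3 is the Itpr1 paralog that moved the other way. The windows are 300 bases around the annotated gene start, from RefSeq on GRCr8, printed 5′ to 3′, and capitals mark GGGCGG or its reverse complement CCGCCC, the core of a GC box bound by Sp factors. Kcna5 lies at chr4:161043760-161044059 on the minus strand, Gprc5b at chr1:182772227-182772526 on the minus strand, Itpr1 at chr4:142743190-142743489 on the plus strand and Itpr3 at chr20:5138562-5138861 on the plus strand.
Kcna5: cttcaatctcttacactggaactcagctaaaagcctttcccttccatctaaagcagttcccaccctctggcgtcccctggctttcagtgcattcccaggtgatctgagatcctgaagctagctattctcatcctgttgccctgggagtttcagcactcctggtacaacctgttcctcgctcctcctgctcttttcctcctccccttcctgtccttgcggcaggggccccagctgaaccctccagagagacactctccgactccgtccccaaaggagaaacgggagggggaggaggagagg
Gprc5b: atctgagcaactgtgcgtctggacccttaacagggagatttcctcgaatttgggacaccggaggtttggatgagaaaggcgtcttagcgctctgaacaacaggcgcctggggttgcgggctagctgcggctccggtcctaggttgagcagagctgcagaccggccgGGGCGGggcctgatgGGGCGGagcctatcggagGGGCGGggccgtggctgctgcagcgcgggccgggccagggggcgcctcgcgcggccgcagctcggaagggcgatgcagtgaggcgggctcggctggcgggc
Itpr1: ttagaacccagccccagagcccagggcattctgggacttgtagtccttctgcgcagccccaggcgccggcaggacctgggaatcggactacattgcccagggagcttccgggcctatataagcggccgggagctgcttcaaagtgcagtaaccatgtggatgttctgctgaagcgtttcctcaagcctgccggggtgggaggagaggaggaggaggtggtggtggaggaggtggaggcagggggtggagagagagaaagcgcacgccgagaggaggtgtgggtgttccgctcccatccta
Itpr3: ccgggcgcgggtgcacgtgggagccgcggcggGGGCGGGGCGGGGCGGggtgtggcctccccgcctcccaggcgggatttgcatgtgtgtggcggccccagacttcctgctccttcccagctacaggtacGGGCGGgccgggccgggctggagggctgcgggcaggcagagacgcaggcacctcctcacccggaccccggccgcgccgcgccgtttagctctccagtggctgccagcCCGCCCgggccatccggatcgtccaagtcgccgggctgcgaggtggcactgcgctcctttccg
Overlapping matches on both strands counted, the Itpr3 window held 5 and the Gprc5b window 3, while those of Kcna5 and Itpr1 held 0. The motif occurred in the windows of 11 of the 25 members that have one, and in 33.1% of 33469 windows in the table. The CG dinucleotide counts were 6 for Kcna5, 29 for Gprc5b, 13 for Itpr1 and 35 for Itpr3, beside a median of 7 over all windows.

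Of the 6 potassium channel genes, 3 fell and none rose, beside 32.8% of all features called lower and 20.7% higher. Family counts here and below describe few genes each and were not tested. Kcna5 encodes the pore of Kv1.5, a delayed rectifier that repolarizes heart and smooth muscle cells. It measured -2.69 and -1.41 in JA, -2.18 and -2.32 in JB, and -1.42 and -2.08 in Amy. All 6 arrays lay far below 0. The JA range held those of both other lines, and JB lay below Amy in both orientations. The mean was -2.02 ± 0.25 (SD, n = 3 lines), or 4.04-fold lower than the pool, with a limma adjusted p of 0.000579.

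Kcnab3, a cytoplasmic beta subunit that assembles with Kv1 pores such as Kv1.5, measured -1.32 and -0.27 in JA, -1.32 and -0.46 in JB, and -1.12 and -0.52 in Amy. The 3 arrays with the line in Cy5 all lay below the 3 with the line in Cy3. Its mean was -0.83 ± 0.05 (SD, n = 3; adjusted p = 0.00343, limma). With the line in Cy3 alone, the mean was -0.41 and the call was lost (adjusted p = 0.0529).

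Kcnj16, the Kir5.1 subunit that pairs with Kir4.1 in acid-sensitive inward rectifiers, measured -1.10 and -0.48 in JA, -0.28 and -0.04 in JB, and -0.68 and -0.58 in Amy. JB was the least reduced line in both orientations. The mean was -0.52 ± 0.32 (SD, n = 3; adjusted p = 0.0421, limma), and the call was lost without JA, without Amy and after centring the arrays (adjusted p = 0.0785). Kcnk2, the mechanically gated leak channel TREK-1, had a mean of -0.23, with arrays between -0.67 and 0.41. Kcng2, a modulatory subunit that forms channels with Kv2 pores, averaged 0.17, while its first clone alone, at 0.64, passed as higher (adjusted p = 0.0158, limma). Kcnip4, a calcium-binding partner of Kv4 pores, averaged 0.02. As gene means, none of these 3 passed the test.

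Among the 3 voltage-gated sodium channel genes, 1 fell, beside 32.8% of all features called lower. Scn4b, the auxiliary beta-4 subunit, measured -1.09 and -1.05 in JA, -0.43 and -0.64 in JB, and -1.28 and -1.10 in Amy. JB lay above both other lines in both orientations, by 0.41 to 0.85. The mean was -0.93 ± 0.35 (SD, n = 3; adjusted p = 0.00796, limma), and the call was lost without JA. Scn3a, the pore of Nav1.3, averaged -0.38 ± 0.18 (SD, n = 3; adjusted p = 0.0528, limma). With dim clones left out its mean was unchanged and its adjusted p was 0.0465. Dim clones are those with small numbers behind their ratios, as described with the whole-number pairs. Scn3b, the beta-3 subunit, had a mean of -0.27 that hid opposite signs in the 2 orientations, described with the dye comparison.

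Cacna2d1, the alpha-2-delta-1 auxiliary subunit of calcium channels to which gabapentin binds, measured -0.50 and -0.56 in JA, -0.29 and -0.44 in JB, and -0.31 and -0.36 in Amy. The 6 values were close to one another and all negative. The mean was -0.41 ± 0.10 (SD, n = 3; adjusted p = 0.0337, limma), and the call was lost with any line left out and after centring the arrays (adjusted p = 0.0864). Clcn7, a chloride-proton exchanger of lysosomes, averaged 0.28 ± 0.19 and did not pass (adjusted p = 0.128).

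Of the 3 TRP channel genes, beside 32.8% of all features called lower, only Trpv1 fell. It encodes the capsaicin receptor, opened by heat and acid and best known in sensory neurons, and measured -0.71 and -0.86 in JA, -0.63 and -0.37 in JB, and -1.30 and -1.08 in Amy. Amy was lowest and JB highest in both orientations. The mean was -0.83 ± 0.34 (SD, n = 3; adjusted p = 0.0114, limma), a call lost without JA and without Amy. Trpm7, a magnesium-permeable channel with a kinase domain, averaged 0.03, and the cation channel Trpc1 averaged -0.02. Neither passed, with arrays of both signs.

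The 2 measured inositol trisphosphate receptors, calcium release channels of the endoplasmic reticulum, moved in opposite directions. Itpr1 measured -0.71 and -1.11 in JA, -0.86 and -1.11 in JB, and -0.98 and -1.11 in Amy, the mean of both clones. The lines did not separate, and the mean was -0.98 ± 0.07 (SD, n = 3; adjusted p = 0.00227, limma). Its clones did not agree: the first averaged -2.03 and the second 0.07. The gene's value is therefore a mean of unlike measurements, and its sign followed the first clone.

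Itpr3 measured 0.29 and 0.37 in JA, 0.28 and 0.59 in JB, and 1.05 and 1.13 in Amy. Amy lay above both other lines in both orientations, by 0.54 to 0.77. The mean was 0.62 ± 0.41 (SD, n = 3; adjusted p = 0.0391, limma). The call was lost without JA, without Amy and after quantile normalization (adjusted p = 0.0528).

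Neither ligand-gated channel passed the test. Chrna3, the alpha-3 nicotinic subunit of autonomic ganglia, measured -1.69 and 2.04 in JA, 0.99 and 2.01 in JB, and -0.38 and 0.22 in Amy. Its arrays spread on both sides of 0, and duplicate spots of JB labelled with Cy3 read 4.52 and -0.49. P2rx4, an ATP-gated cation channel, averaged 0.21 ± 0.19 (SD, n = 3; adjusted p = 0.221, limma).

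Of the 2 adrenergic receptors, Adra2b fell. This alpha-2B receptor couples to inhibitory G proteins, and it measured -3.85 and -1.35 in JA, -0.48 and -1.24 in JB, and -0.998 and -1.88 in Amy. The JA array with the line in Cy5 stood apart, and its duplicate spots read -6.40 and -1.31. The mean was -1.63 ± 0.89 (SD, n = 3; adjusted p = 0.0124, limma), and with the replicate block the adjusted p was 0.078. The call was also lost without Amy. Adra1d, the alpha-1D receptor coupled to Gq, averaged -0.46 ± 0.28 (SD, n = 3; adjusted p = 0.0508, limma), and passed after quantile normalization (adjusted p = 0.0439). It also passed with dim clones left out (adjusted p = 0.0443, limma), where its own clone stayed and its mean was unchanged.

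The 4 genes grouped as receptors by their Gpr symbols split, with 2 higher, 1 lower and 1 not passed. Of all features, 20.7% were called higher and 32.8% lower. Gprc5b, an orphan receptor of the retinoic acid-inducible class, measured -3.87 and -2.01 in JA, -1.67 and -1.94 in JB, and -2.24 and -2.30 in Amy. Every array was at or below -1.67. The mean was -2.34 ± 0.57 (SD, n = 3; adjusted p = 0.0015, limma). Its neighbouring clones differed, the first averaging -0.48 and the second -4.20, and the first alone did not pass (adjusted p = 0.132).

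Gpr155, a membrane protein of lysosomes that senses cholesterol, measured 0.40 and 0.96 in JA, 0.37 and 0.65 in JB, and 0.21 and 0.57 in Amy. All 6 arrays were positive, and the mean was 0.53 ± 0.15 (SD, n = 3; adjusted p = 0.0181, limma), a call lost without JA and without Amy. Gpr89b, a pH regulator of the Golgi, averaged 0.37 ± 0.12 (adjusted p = 0.0474), the call nearest the threshold, kept under 9 of 21 alternatives and lost with any line left out. Gpr37, an orphan receptor known as a parkin substrate, averaged 0.36 ± 0.30 and did not pass, though it did once arrays were centred (adjusted p = 0.0452).

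The 5 genes matched by spelling are not channels or receptors, and 2 of them fell, beside 32.8% of all features called lower. Glrx, glutaredoxin, a thiol-disulfide oxidoreductase, measured -3.36 and -3.90 in JA, -1.45 and -1.90 in JB, and -4.09 and -0.71 in Amy. JB was reduced least when lines carried Cy5, and Amy when they carried Cy3. The mean was -2.57 ± 0.99 (SD, n = 3; adjusted p = 0.0042, limma).

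Gprasp3, related to sorting proteins that bind G-protein-coupled receptors, averaged -0.49 ± 0.15 (SD, n = 3; adjusted p = 0.0219, limma). Its first clone averaged -0.24 and did not pass alone (adjusted p = 0.274), its second averaged -0.74, and the gene's call was lost under 8 of 21 alternatives, among them without JA and without Amy. Grina, a member of the TMBIM family despite its glutamate receptor name, had a mean of -0.29 with all 6 arrays negative and did not pass (adjusted p = 0.105). The serine protease Htra3 averaged -0.02, and Gpr15lg, the secreted ligand of Gpr15, averaged 0.08.

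In all, 7 genes had 2 clones, and in 2 of them, Gprc5b and Itpr1, the clones lay at least 1.5 apart (28.6%, against 17.4% of the 655 genes with several clones). The first Itpr1 clone measured -1.86 and -2.06 in JA, -2.01 and -2.004 in JB, and -2.18 and -2.07 in Amy. The second measured 0.44 and -0.16 in JA, 0.30 and -0.22 in JB, and 0.23 and -0.15 in Amy. The first clone was near a fixed value on every array, while the second was positive with the line in Cy5 and negative with the line in Cy3. Clones of Kcng2 averaged 0.64 and -0.31, those of Htra3 0.37 and -0.40, and those of Grina 0.08 and -0.67. Tested singly, the second clones of Htra3 (adjusted p = 0.0403) and Grina (adjusted p = 0.0253, limma) passed as lower, although neither gene passed as a mean. Which part of a transcript each clone covers was not analysed here.

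**Figure D2:**
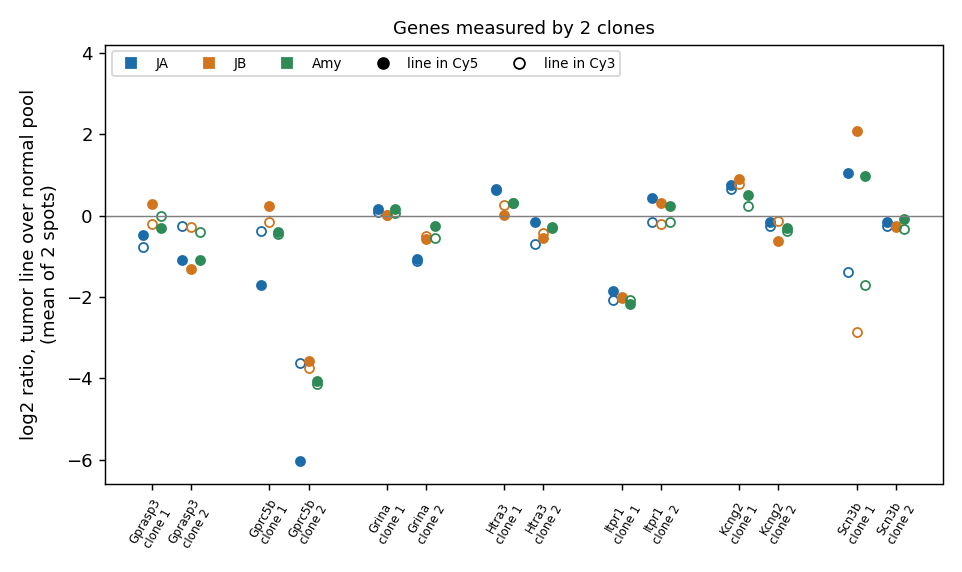
Log2 ratio of tumor line over normal pool (y axis) for each clone of the 7 genes with 2 clones (x axis), as the mean of 2 spots on each of 6 arrays; filled points have the line in Cy5 and open points in Cy3. The clones of Gprc5b and Itpr1 separate on every array, and the first Scn3b clone splits by dye.

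The deposited values carry a trace of the signals behind them. On each array they equal a constant plus the log2 of a ratio of whole numbers, and 86 to 166 spots per array sit exactly at that constant. Another 34 to 57 lie exactly 1 from it, the step of a ratio of 2 to 1, so the logarithm is to base 2. The smallest whole-number pair that gives each value was recovered; because a common factor cancels, it is a lower bound on the numbers divided. The median of the larger number was 367 to 531 per array, against 36147 to 37746 once 0.0005 was added to every value, which destroys the pattern. These pairs are not counts, and scanner signals were not used.

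Small pairs lay behind several large ratios. For Kcna5 the numbers ran from 5 to 56 on the line side and from 18 to 156 on the pool side. The second Gprc5b clone had 2 to 39 on the line side and 37 to 361 on the pool side, while the first had 9 to 89 and 12 to 92. For Chrna3 they ran from 1 to 51 on the line side and from 1 to 33 on the pool side. Duplicate spots of Adra2b on the JA array with the line in Cy5 gave 2 to 159 and 3 to 7 (line to pool). Glrx was of another order, with medians of 2213 on the line side and 21743.5 on the pool side. On the Amy array with the line in Cy3, however, its duplicate spots gave 3 to 8 and 1 to 1 (line to pool), and leaving that array out moved its mean to -3.13.

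Clones with a median larger number under 50, which are 502 of 8064, were left out as an alternative chosen after seeing the data. This left 27 of the 29 genes, of which 16 passed (59.3%, against 56.5% of the 6747 features left), 3 higher and 13 lower. Gprc5b then rested on its second clone alone, at -4.20. Chrna3 and Kcnip4 had no clone left.

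**Figure D3:**
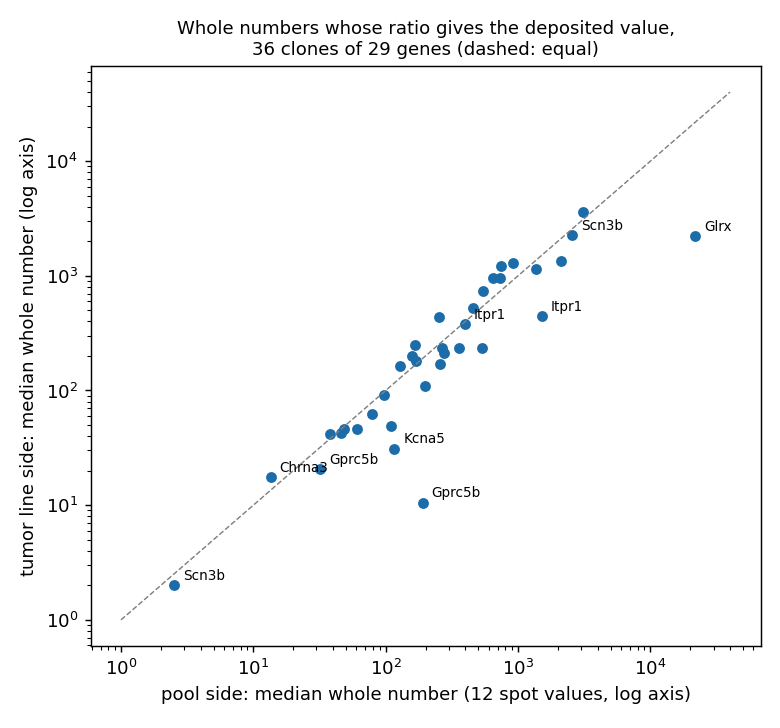
Median whole number on the line side (y axis, log scale) against the pool side (x axis, log scale) over 12 spot values for each of 36 clones; the dashed line marks equality. One Scn3b clone sits at the low end with medians of 2 and 2.5, and Glrx lies far below the line at 2213 and 21743.5.

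The difference between dye orientations, Cy5 minus Cy3 within each line, tests what did not turn with the dyes. None of the 29 genes passed limma's test at an adjusted p under 0.05, against 0.501% of all features (36 of 7180). At an unadjusted p under 0.05 there were 7 (24.1%, against 35.3% of all features). The orientations did not overlap in 6 genes (20.7%, against 25.8% of all features). The genes named next were chosen after their values were seen.

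Scn3b measured 0.44 in JA, 0.90 in JB and 0.44 in Amy with the line in Cy5, against -0.83, -1.56 and -1.02 with the line in Cy3. Every line changed sign with the dye, and the difference was 1.73 (adjusted p = 0.0574, limma). The first clone carried it, with whole numbers of 1 to 19 on the line side and 1 to 13 on the pool side. The second clone averaged -0.23, with medians of 2270 and 2571.5. With dim clones left out the Scn3b difference was 0.11 (adjusted p = 0.471).

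Kcnab3 averaged -1.25 with the line in Cy5 and -0.41 with the line in Cy3, a difference of -0.84 (adjusted p = 0.0574, limma). Both orientations were negative in every line. The difference passed after quantile normalization (adjusted p = 0.0493, limma) and, unchanged in size, with dim clones left out (adjusted p = 0.0294). Chrna3 averaged -0.36 with the line in Cy5 and 1.42 with the line in Cy3 (adjusted p = 0.143).

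**Figure D4:**
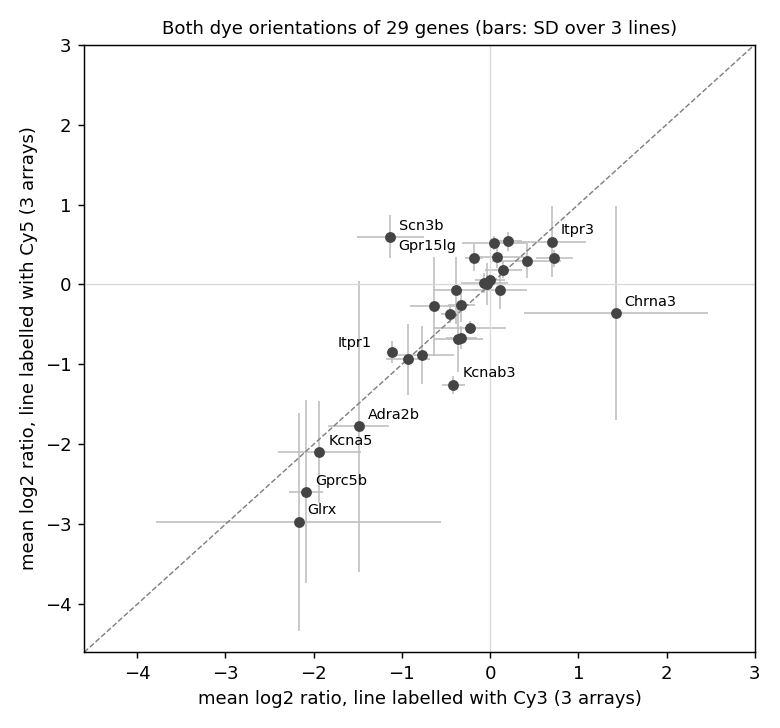
Mean log2 ratio of 29 genes over 3 arrays with the line in Cy5 (y axis) against 3 arrays with the line in Cy3 (x axis); bars are the SD over 3 lines and the dashed diagonal marks equal values. Scn3b at 0.59 and -1.13 and Chrna3 at -0.36 and 1.42 (Cy5, Cy3) lie farthest from the diagonal.

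No gene of the 29 had 1 line set apart from both others by at least 1 in both orientations, against 2.77% of all features, and none by at least 0.7, against 6.35%. Single lines have no replicate, so these differences have no test. The nearest was Itpr3 in Amy, with a smallest gap of 0.54, followed by Scn4b and Kcnj16 in JB at 0.41 and 0.39.

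Genes related to these families were described from fixed lists. Of all features, 32.8% were called lower and 20.7% higher. Of 4 aquaporins measured, 3 fell and 1 rose: the water channels Aqp1 at -4.52 ± 0.17 and Aqp4 at -1.71 ± 0.37 were lower, and Aqp8 at 0.90 ± 0.62 was higher. Both connexins passed, Gjb1 lower at -1.82 and Gjb5 higher at 0.47. Of 11 genes on a list of other channels, which also holds regulators such as Clns1a and the Fxyd genes, 6 rose and 1 fell. Among those that rose, Clns1a, a chloride current regulator and methylosome subunit, averaged 1.19, Fxyd3 0.84 and Fxyd2 0.52. The intracellular chloride channel protein Clic4 averaged 1.12, and the mitochondrial porin Vdac2 fell to -0.86.

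Of 7 peptide hormone and transmitter receptors measured, 1 fell, the luteinizing hormone receptor Lhcgr at -1.17 ± 0.63 (SD, n = 3; adjusted p = 0.0146, limma), and 6 did not pass. Of 16 signalling partners, 6 fell and 1 rose, beside 32.8% lower and 20.7% higher of all features. The kinase anchor Akap12 averaged -1.69 ± 0.55 and Rapsn, which clusters nicotinic receptors at the muscle endplate, averaged -1.17 ± 0.25. Grk6, a receptor kinase, rose by 0.99 ± 0.32.

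Markers of other cell types moved in the same arrays, on which 32.8% of all features were called lower and 20.7% higher. Lower in the lines were 11 of 13 fibroblast markers (median -3.19), 6 of 7 muscle markers (median -1.38) and 6 of 7 leukocyte markers (median -2.48), while 1 of 7 neuron markers was lower and none higher. Of 4 glia markers, 2 were higher and 2 lower. Only 2 epithelial markers were measured: Krt8 averaged 0.41 and did not pass, and Lgals7 averaged -5.82 and fell. Ratios give no level in either group, and the part of these cell types in the channel and receptor results was not tested.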

How the data were processed

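RNA of 3 tumor lines was compared with a normal pool on 6 arrays. The authors deposited log2 ratios per spot; scanner, background correction and normalization are not given in the sources used here. The base was found from the values, and no sign was changed, since the arrays of a pair correlated at 0.791 to 0.867. Array medians lay between -0.15 and -0.05, and centring them moved the median of all features from -0.12 to 0.00.

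Spots were averaged per symbol, and clones without a single symbol were kept as features (3158 genes and 4022 clones). Both arrays of each line were averaged and the 3 means tested against 0 with limma 3.58.1 in R 4.3.3 (lmFit and eBayes, two-sided), Benjamini-Hochberg adjusted over 7180 features at 0.05. The script was tested on simulated data. Dye orientation, the replicate number, pairs the arrays: its difference correlated between lines at 0.526 to 0.613.

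Members, lists and tests were chosen with earlier results of these data known. Named were members that passed with 1 sign on all arrays, those past the dye test or set apart in 1 line (none), those with clones 1.5 apart, 1 per family, spelling matches and up to 3 per related list; all others were added after their values were seen. All 29 symbols matched RefSeq by gene ID. Alternatives covered centring, scaling, single dyes, arrays or lines left out, variances, clones and thresholds. Figures used matplotlib 3.10.9 in Python 3.11.15.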

Additional observations from a re-analysis of the deposited data

Results flagged for a closer look

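Gpr15lg and Scn3b changed sign with the dye in every line. The orientations did not overlap in 25.8% of all features, and how many of these also changed sign was not counted. The difference between orientations, Cy5 minus Cy3, was 0.52 for Gpr15lg (adjusted p = 0.0672, limma) and 1.73 for Scn3b (adjusted p = 0.0574). With dim clones left out, the Gpr15lg difference was unchanged and its adjusted p was 0.0436.

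In 2 genes every array of one line had the opposite sign to every array of another. These differences were not tested, and the share of all features that meet this rule was not counted. Htra3 averaged -0.18 in JB and 0.018 in Amy. In Amy its first clone read 0.32 on both arrays, and its second read -0.27 and -0.30. Kcnip4 averaged 0.025 in JA and 0.28 in JB, against -0.24 in Amy.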

How the results depend on the processing

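Of the 29 genes, 6 (20.7%) were called in the lines at a threshold of 0.01, against 31.9% of all features. With a spread given to the pool, 5 were called (17.2%, against 27.4%), and without moderated variances 3 (10.3%, against 14.5%). Leaving out an array or a line gave 6 to 14 (20.7% to 48.3%, against 28.9% to 51.8% of all features), beside 14 in the main test. The replicate block, with dye orientation as a term and line as a random block, gave 13 and ended the call of Adra2b. These 13 were 44.8% of members, against 54.5% of all features. Over 21 alternatives, Kcna5 and Itpr1 were called in all, Glrx and Kcnab3 in 20, and Gpr89b in 9. No alternative used the second Itpr1 clone alone, which averaged 0.07 and did not pass when tested singly (adjusted p = 0.619, limma). No called gene changed sign under the 21 alternatives. In the dye comparison 0 genes became 4 at a threshold of 0.10, 2 after quantile normalization and 2 with dim clones left out (13.8%, 6.9% and 7.41% of members, against 23.4%, 5.68% and 15% of all features); 0 were called with any line left out.

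Reversals, 27 in all, concerned genes that were not called in the main test. With the line in Cy5 only, means were -0.36 for Chrna3, 0.0042 for Htra3, -0.069 for Kcnip4 and 0.023 for Trpc1. Scn3b passed with either sign, at 0.59 in Cy5 only (adjusted p = 0.0305, limma) and -1.13 in Cy3 only (adjusted p = 0.0053, limma). Chrna3 passed as higher in Cy3 only, at 1.42 (adjusted p = 0.0262, limma), and Gpr15lg was at -0.18 there. Centred arrays gave 0.11 for Htra3 and 0.10 for Trpc1, and scaled arrays 0.10 for both. The first clone alone gave 0.085 for Grina and 0.37 for Htra3. With an array or line left out, ranges were -0.088 to 1.15 for Chrna3, -0.038 to 0.19 for Gpr15lg, -0.081 to 0.065 for Htra3, -0.11 to 0.15 for Kcnip4, -0.68 to 0.14 for Scn3b, -0.092 to 0.050 for Trpc1 and -0.023 to 0.086 for Trpm7. The cause was not tested. The number of arrays limits the precision. Small whole numbers limit, among others, Kcna5, Chrna3, Adra2b, both clones of Gprc5b and the first clone of Scn3b.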

Other observations

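Spots whose larger whole number was under 50 made up 10.51% to 13.97% of each array, the most on the Amy array with the line in Cy3. On that array 1 spot of the first Grina clone gave 1 to 1 (line to pool), beside 2021 to 1854 for its duplicate. A small pair can therefore be a large pair reduced, and the median over 12 spot values was used for each clone.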
